A study of Mus musculus with 4 samples.

Results

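On mouse chromosome 10, 76 genes formed the set described here. They were selected on position, between coordinates 25000000 and 53000000, and on level, with an FPKM of at least 1 in at least 2 of 4 mammary tumors. FPKM is the number of fragments per kilobase of transcript, scaled to the mapped fragments of a library. Lama2, Lama4, Col10a1 and Rspo3 lie in the stretch and were left out by the same rule, and 2 of these 4 passed the FPKM limit. The 76 members stand against 12752 genes of the whole series that passed the same limit, out of 23746 rows. The limits of the stretch were chosen because many of its genes were raised in these tumors, so their levels are given as a description. The limma values of the genotype comparison come from a fit over all genes and support nothing about the choice of the set.

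PolyA RNA of 4 primary mammary tumors of female mice was sequenced. Tumors 26043 and 26044 came from WapCre;Rank;Brca1;p53 mice and are called triple-mutant, while tumors 26048 and 26050 came from WapCre;Brca1;p53 mice and are called double-mutant. All 4 tumors therefore carried WapCre and the conditional Brca1 and p53 alleles, and the genotypes differed in the conditional Rank allele. The Cre transgene is driven by the Wap promoter in mammary epithelial cells, so cells of the stroma keep the floxed genes. The animals were littermates according to the methods, but which tumors came from the same litter, the age of each mouse and the grade of each sequenced tumor are not given in the sources used here. Whether a tumor arose from 1 clone is not given either.

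Genes that lie side by side on a mammalian chromosome mostly have unrelated functions, and this stretch is of that kind, with kinases, chromatin proteins, ubiquitin ligases, autophagy genes and enzymes of metabolism in no functional order. Counterparts of many of them, among them Hdac2, Fyn, Foxo3, Prdm1 and Atg5, lie together on the long arm of human chromosome 6. Mammary tumors without Brca1 and p53 are known for gains and losses of chromosome stretches, and a change in the number of copies can shift many neighbouring genes at once. DNA was not measured in the files analysed here, and the part of copy number in these values was not tested.

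Each library gave 12150 to 12681 genes at 1 FPKM or more, and summed FPKM over all rows ran from 690775 to 796031. The number of reads behind each library is unknown. Trp53, which encodes p53, was at 15.7, 87.8, 150 and 103 FPKM in tumors 26043, 26044, 26048 and 26050. Brca1 was at 3.26, 3.28, 3.84 and 5.69 FPKM in these tumors. The FPKM of a whole gene does not show whether its floxed exons were deleted. For mammary tumors of this model, the paper reported effective deletion of Rank, Brca1 and p53, with qRT-PCR. Tnfrsf11a, which encodes Rank, was at 2.07 and 0.962 FPKM in the triple-mutant tumors and at 10.6 and 11.9 FPKM in the double-mutant tumors. The luminal keratin and adhesion markers (5 genes) summed to 2803, 408, 2214 and 1874 FPKM in the same order, and 4 of the 5 were lower by at least 1 log2 unit in tumor 26044 than the median of the other 3. The 5 basal markers, among them Krt5 and Krt14, summed to 1736, 1258, 67.4 and 46.3 FPKM and all 5 were raised in 26044. Markers of other cells also differed, with macrophage genes at 237, 157, 567 and 341 FPKM, fibroblast genes at 205, 123, 899 and 433 FPKM, endothelial genes at 25.4, 78.1, 43.8 and 24.7 FPKM and adipocyte genes at 7.58, 261, 1390 and 31.5 FPKM. Adipoq, Lep and Plin1 were at 0 in 26044, so its adipocyte sum came from the other listed genes, Fabp4 and Cidec. Muscle genes were at 0.689, 0.627, 0.638 and 28.9 FPKM, with Myh4 at 0 in 26044. T cell genes summed to no more than 10.4 FPKM and B cell genes to no more than 1.53 FPKM in any tumor. The part of these markers in the levels below was not tested.

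The members stood high in the triple-mutant tumor 26044 and in no other tumor to the same degree. To trace them, the level of each gene in a tumor was expressed as log2(FPKM + 1) minus the median of the other 3 tumors, and a gene was called raised at a difference of at least 1. In 26044, 61 of the 76 members (80.3%) were raised, while 9.9% of all tested genes were. In 26043, the other triple-mutant tumor, 7 members (9.21%) were raised beside 9.54% of all genes. In the double-mutant tumors, 2 members (2.63%) were raised in 26048 and 4 (5.26%) in 26050, beside 6.11% and 5.25% of all genes. Each value rests on a single tumor, so the differences have no replicate check. In bulk tumor RNA, fewer cells of a type and less RNA per cell cannot be told apart.

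The median difference of the members was 2.42 in 26044, with quartiles of 1.497 and 3.27 and a range of -3.29 to 5.50. It was 0.34 in 26043, -0.67 in 26048 and -0.31 in 26050, and the medians over all genes were -0.13 in 26044 and 0.08, 0.04 and -0.04 in 26043, 26048 and 26050. Median FPKM of the members was 44.7 in 26044 against 8.56, 5.50 and 6.11 in 26043, 26048 and 26050, while that of all tested genes was 10.4 in 26044 and 12.4, 11.5 and 10.8 in the others. In summed FPKM, the members took 1.15% of the 26044 library and 0.164% to 0.257% of the other libraries. On the linear scale, the median ratio of 26044 to the median of the other tumors was 6.28, and the highest ratio was 103, for Sobp. A rise of at least 2 log2 units was seen in 47 members beside 3.50% of all genes, and a rise of at least 3 in 24 members beside 1.45%. These 61 and the other 15 members are plotted by their position in the trace of all members along the chromosome.

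**Figure D1:**
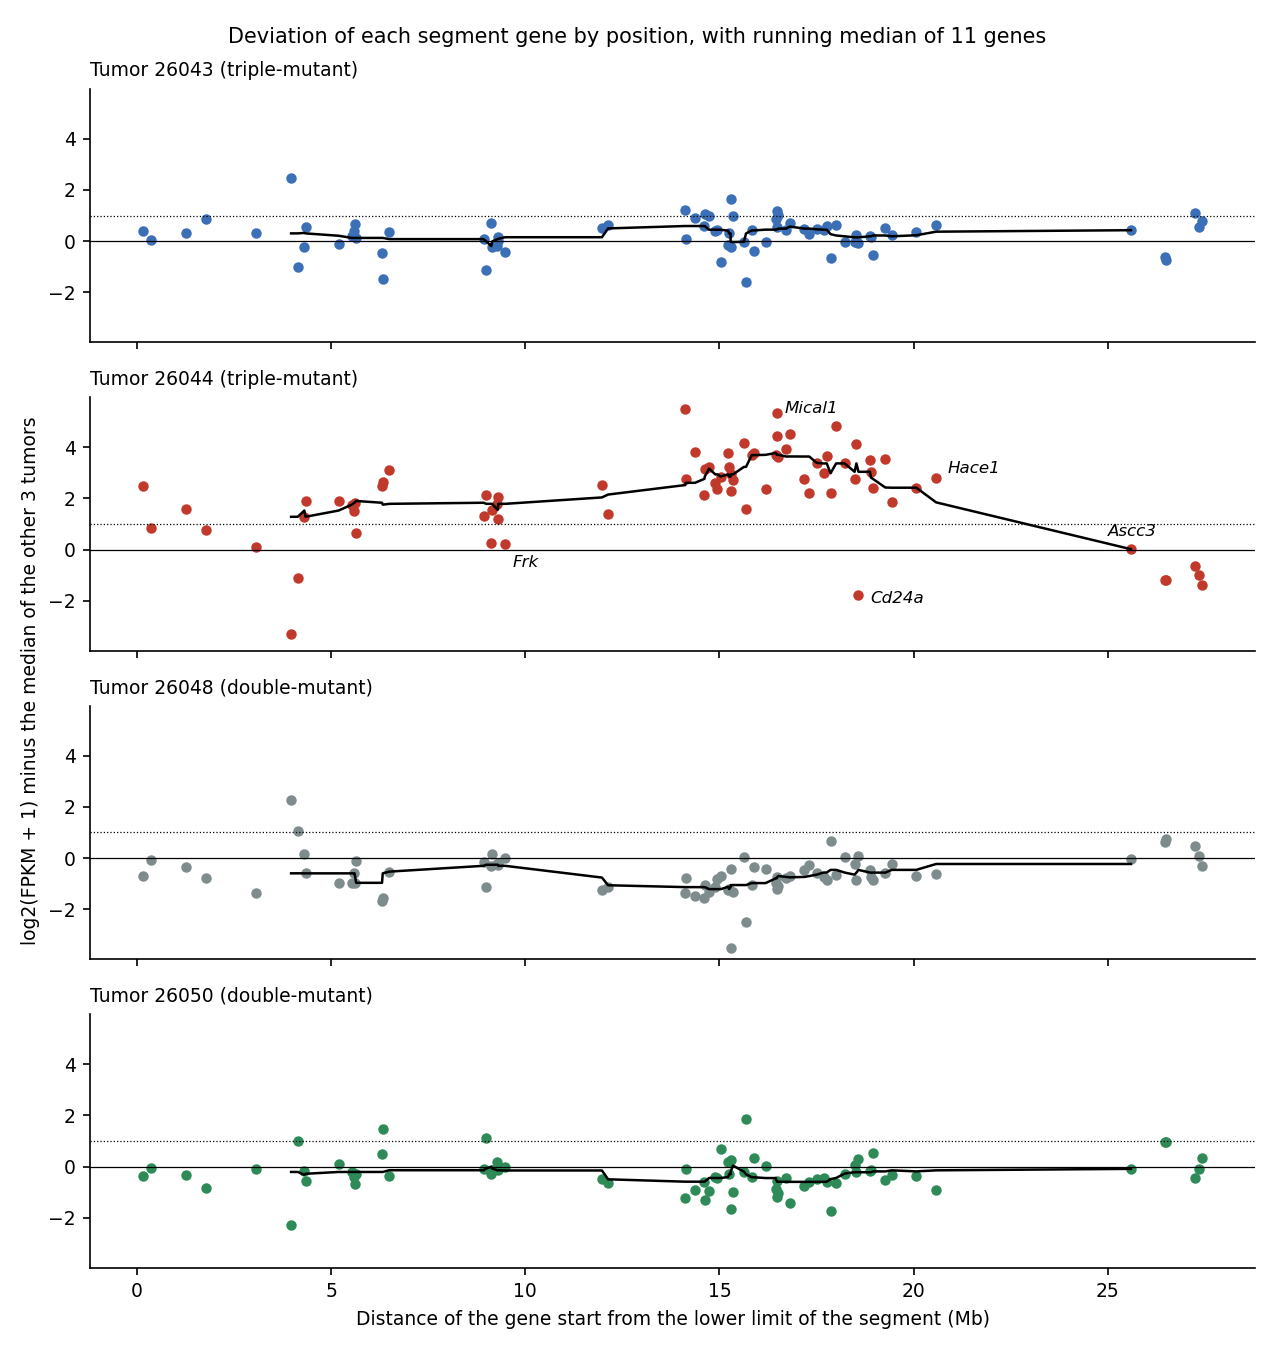
Difference of each of the 76 members (points) from the median of the other 3 tumors, in log2(FPKM + 1), by position on chromosome 10. The axis gives the distance of the gene start from 25 Mb, and positions named here are chromosome coordinates. There is 1 panel per tumor, with the running median over 11 members as a line. In tumor 26044 most points lie above 1 from 30 to 46 Mb and fall to around 0 or below beyond 50 Mb, while the medians of the other panels are 0.34, -0.67 and -0.31.

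The excess over all genes is not carried by a few members, as the cumulative plot of the differences shows. Tumor 26044 held the highest of the 4 values for 63 members (82.9%), whereas it did for 24.2% of all genes. For the same 63 members the confidence interval that Cufflinks gave for 26044 lay wholly above the intervals of the other 3 tumors, and this held for 16% of all genes. Epb4.1l2, Ncoa7 and Frk were among these 63 without reaching a difference of 1. The intervals cover the estimation within a library and not the spread between tumors, and in each tumor 21 to 44 of the 76 members had an FPKM outside its own interval, so the intervals are given as a description.

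**Figure D2:**
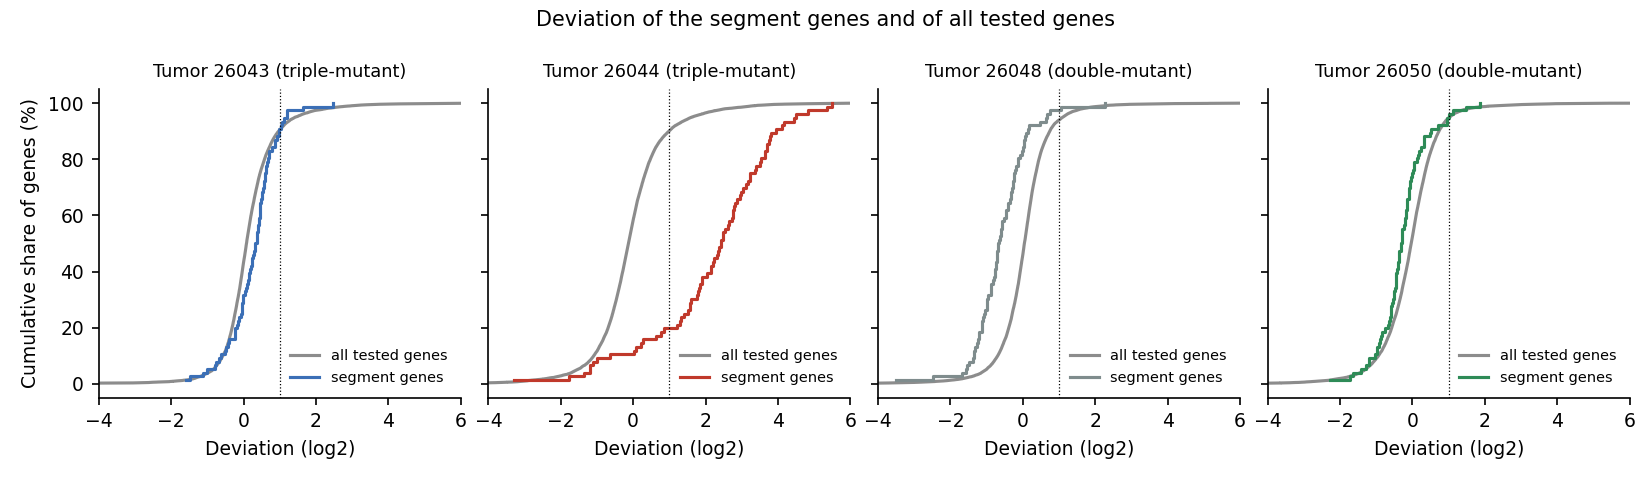
Cumulative share of genes by their difference from the median of the other 3 tumors, in log2 units, for the 76 members and for all 12752 tested genes, 1 panel per tumor, with a dotted line at 1. The curve of the members lies far to the right of all genes in tumor 26044, to the left in 26048, and closer to it in 26043 and 26050.

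Along the chromosome, the raised genes of 26044 began before 30 Mb and ended with Hace1. From Cenpw (chr10:30196009) to the end of Hace1 (chr10:45712345), limits that were chosen after the values were seen, 57 of 61 members were raised, with a median difference of 2.76. The 4 exceptions were Ncoa7, Fam26f, Frk and Cd24a. The longest unbroken run held 37 consecutive members of the set, from Hdac2 to 1700021F05Rik. Before Cenpw, 4 of 9 members were raised (Akap7, L3mbtl3, Echdc1 and Rnf146), and after Hace1 none of 6 was, so that the median difference of the members was 0.86 in the bin from 25 to 30 Mb and 1.77 from 30 to 35 Mb. It was 2.69 from 35 to 40 Mb and 3.37 from 40 to 45 Mb, where 32 of 33 members were raised. From 50 to 53 Mb it was -1.08.

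Members that were raised and members that were not followed each other in order at several points, in some cases across a wide gap. Frk, a Src-related tyrosine kinase (chr10:34483400-34611230), was at 2.25, 4.06, 3.36 and 3.35 FPKM in 26043, 26044, 26048 and 26050, a difference of 0.22 in 26044. The next member, Hdac2, a class I histone deacetylase (chr10:36974544-37001888), was at 74.7, 307, 30.6 and 52.6 FPKM, a difference of 2.52. Hdac2 in 26044 lay far above the other 3 tumors, and Frk in 26044 was highest by a small margin.

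At the other end, Hace1, a HECT-type ubiquitin ligase (chr10:45577829-45712345), was at 7.29, 36.5, 4.36 and 3.41 FPKM, a difference of 2.81. Ascc3, a helicase and the next member 4.88 Mb further along (chr10:50592669-50851202), was at 7.91, 5.70, 5.62 and 5.35 FPKM, a difference of 0.02. The level of Ascc3 in 26044 thus lay inside the range of the other tumors. The 250 bases before the start of these 4 genes, from RefSeq on GRCm38.p6, are shown because each pair sets a gene that was raised beside a neighbour that was not. They were searched on both strands for the letters TATAAA of a core promoter box, for CCAAT, bound by the factor NF-Y, and for the GC box GGGCGG. No match overlapped another, and capitals mark the matches on either strand.
Frk: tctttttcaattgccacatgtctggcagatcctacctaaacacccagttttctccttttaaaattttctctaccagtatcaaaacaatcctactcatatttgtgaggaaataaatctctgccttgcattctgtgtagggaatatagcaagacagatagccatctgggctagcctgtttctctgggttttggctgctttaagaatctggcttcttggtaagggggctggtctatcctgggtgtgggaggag
Hdac2: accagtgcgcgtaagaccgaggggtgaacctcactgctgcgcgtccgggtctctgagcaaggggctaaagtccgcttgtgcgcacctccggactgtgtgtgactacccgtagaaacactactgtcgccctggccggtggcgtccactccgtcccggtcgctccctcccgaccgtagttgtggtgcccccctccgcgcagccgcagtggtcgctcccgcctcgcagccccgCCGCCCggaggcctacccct
Hace1: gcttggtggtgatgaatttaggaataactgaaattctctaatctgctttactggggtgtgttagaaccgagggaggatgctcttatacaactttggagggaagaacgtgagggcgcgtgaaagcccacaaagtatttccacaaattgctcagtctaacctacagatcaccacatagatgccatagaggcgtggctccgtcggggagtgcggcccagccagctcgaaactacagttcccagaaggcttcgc
Ascc3: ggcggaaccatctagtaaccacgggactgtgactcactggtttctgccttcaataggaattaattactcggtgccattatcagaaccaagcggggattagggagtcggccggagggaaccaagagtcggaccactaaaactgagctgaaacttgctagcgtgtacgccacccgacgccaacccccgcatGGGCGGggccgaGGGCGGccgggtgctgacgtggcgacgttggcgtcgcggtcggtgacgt

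All 4 stretches are on the plus strand, Frk at chr10:34483150-34483399, Hdac2 at chr10:36974294-36974543, Hace1 at chr10:45577579-45577828 and Ascc3 at chr10:50592419-50592668. Hdac2 had 1 match of GGGCGG, read on the minus strand, and Ascc3 had 2 on the plus strand, while Frk and Hace1 had no match of any of the 3 motifs. GC content was 43.2% and 68.8% for Frk and Hdac2, and 50% and 60% for Hace1 and Ascc3. The raised gene was thus richer in GC in the former pair and poorer in the latter.

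Of the 76 members, 62 had such a promoter entry. GGGCGG was found in 64.5% of them, beside 35.7% of the 32851 promoters of the whole RefSeq table, CCAAT in 43.5% beside 37.4% and TATAAA in 8.06% beside 13.6%. Among the 50 raised members with an entry, GGGCGG stood in 70% and median GC content was 62.2%, and among the 12 others these were 41.7% and 54.2%. The values over all promoters were a median of 52.7% GC and 7 CG pairs, against 61.5% GC and 20 CG pairs for the 62 members. The members had passed the FPKM limit, whereas all RefSeq promoters were taken whatever the level of their gene. All promoters are thus not a like baseline for the members, and shares over the tested genes alone are not given. The part of the FPKM limit in the differences between members and all promoters was not tested. A match is a description of letters in the entry, and the comparison is not a test.

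Of the kinases and phosphatases, 8 were listed, 6 were members and 4 were raised in 26044, with a median difference of 2.55. The counts of this group and of those below stand beside 80.3% of all members and 9.9% of all tested genes raised in 26044. Fyn, a Src-family tyrosine kinase (chr10:39369799-39565374), was at 24.97, 193, 8.25 and 12.8 FPKM in 26043, 26044, 26048 and 26050. The level in 26044 was 15.1 times the median of the other tumors, a log2 difference of 3.82. Cdk19, a kinase of the Mediator complex, was at 24.5, 83.6, 9.20 and 11.9 FPKM, and here both triple-mutant tumors lay above both double-mutant tumors. Fig4, a phosphoinositide phosphatase, was at 7.40, 42.7, 5.49 and 7.62 FPKM, and the other tumors lay close together. Smpd2, a neutral sphingomyelinase listed with this group, was at 24.1, 365, 14.1 and 15.9 FPKM, and its difference of 4.44 was the highest of the 6. Ptprk, a receptor-type tyrosine phosphatase, was at 24.8, 21.2, 7.63 and 19.9 FPKM, and differed by 0.09 in 26044. Together with Frk it was the exception of the group, and tumor 26048 rather than 26044 stood apart, at 1.37 log2 units below the median of the others.

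Genes of transcription and chromatin had 10 members, 9 of them raised in 26044, with a median difference of 2.64. Hdac2, given above, and Gtf3c6, a subunit of a general factor of RNA polymerase III, were the most abundant. Gtf3c6 was at 45.4, 353, 19.0 and 36.7 FPKM. Zbtb24, a zinc finger protein linked to DNA methylation, was at 7.93, 62.3, 3.54 and 3.86 FPKM, a difference of 3.70. Foxo3, a forkhead factor of the insulin and stress response, was at 18.8, 97.2, 13.3 and 10.6 FPKM, a difference of 2.77. In each of these genes 26044 was the highest tumor by a wide margin, and 26043 came next. Bend3, a protein of heterochromatin, was at 6.36, 49.0, 5.43 and 6.62 FPKM. L3mbtl3, a reader of methylated lysine, was at 3.13, 8.84, 2.21 and 2.30 FPKM, with a difference of 1.57. Prdm1, the repressor Blimp-1 of plasma cell differentiation, was low throughout, at 1.12, 5.50, 0.808 and 0.694 FPKM, and differed by 1.85. Sobp showed one of the highest differences, 4.82, at 1.11, 37.5, 0.346 and 0.362 FPKM. It passed the FPKM limit narrowly, so its ratio rests on levels under 1 FPKM in the double-mutant tumors. Scml4 was at 2.55, 15.6, 4.63 and 0.706 FPKM. Ncoa7, the only member of the group that was not raised, was at 11.8, 17.2, 10.7 and 9.49 FPKM.

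Genes of DNA synthesis, chromosome segregation and RNA processing had 7 members, of which 6 were raised in 26044, with a median difference of 2.77. Rev3l, the catalytic subunit of the translesion DNA polymerase zeta, was at 6.64, 35.4, 2.02 and 2.90 FPKM, a difference of 3.22. Rpf2, a factor of ribosome assembly, was at 20.3, 288, 9.13 and 22.8 FPKM, and Cdc40, a splicing factor, at 12.6, 130.7, 5.56 and 9.19 FPKM. The differences of Rpf2 and Cdc40 were 3.76 and 3.69. Tube1, the epsilon-tubulin of centrioles, was at 2.79, 23.2, 1.24 and 2.56 FPKM. Cenpw, a centromere protein, was at 11.6, 46.2, 5.998 and 12.7 FPKM, and Trmt11, a tRNA methyltransferase, at 5.38, 17.6, 2.21 and 4.51 FPKM, with differences of 1.90 and 1.76. In all 6 genes 26048 was the lowest tumor. Ascc3, beyond Hace1, was the member not raised.

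All 8 listed genes of stress, autophagy and protein turnover were members, and all 8 were raised in 26044, with a median difference of 2.90. Sesn1, a sestrin that is a known p53 target and restrains growth signalling, was at 12.01, 180.3, 7.001 and 3.86 FPKM in 26043, 26044, 26048 and 26050, a difference of 4.50 and a ratio of 25.8. Atg5, which is needed for the conjugation step of autophagy, was at 26.6, 224, 17.6 and 18.4 FPKM, a difference of 3.54. The intervals of both genes in 26044 lay above those of the other tumors, as for the other 6 genes of the group. Among the ubiquitin ligases, Rnf217 was at 6.55, 50.3, 4.23 and 4.89 FPKM. Rnf146, which recognises poly-ADP-ribosylated proteins, was at 16.1, 43.1, 10.3 and 10.7 FPKM, with differences of 3.12 for Rnf217 and 1.91 for Rnf146. Prep, a prolyl endopeptidase, was at 58.0, 245, 35.2 and 44.7 FPKM. Traf3ip2, the adaptor of the IL-17 receptor, was at 15.3, 47.1, 4.57 and 9.83 FPKM, and Ostm1, a lysosomal membrane protein, at 13.1, 80.9, 7.37 and 9.35 FPKM. The differences of these 3 genes were 2.43, 2.15 and 2.98.

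**Figure D3:**
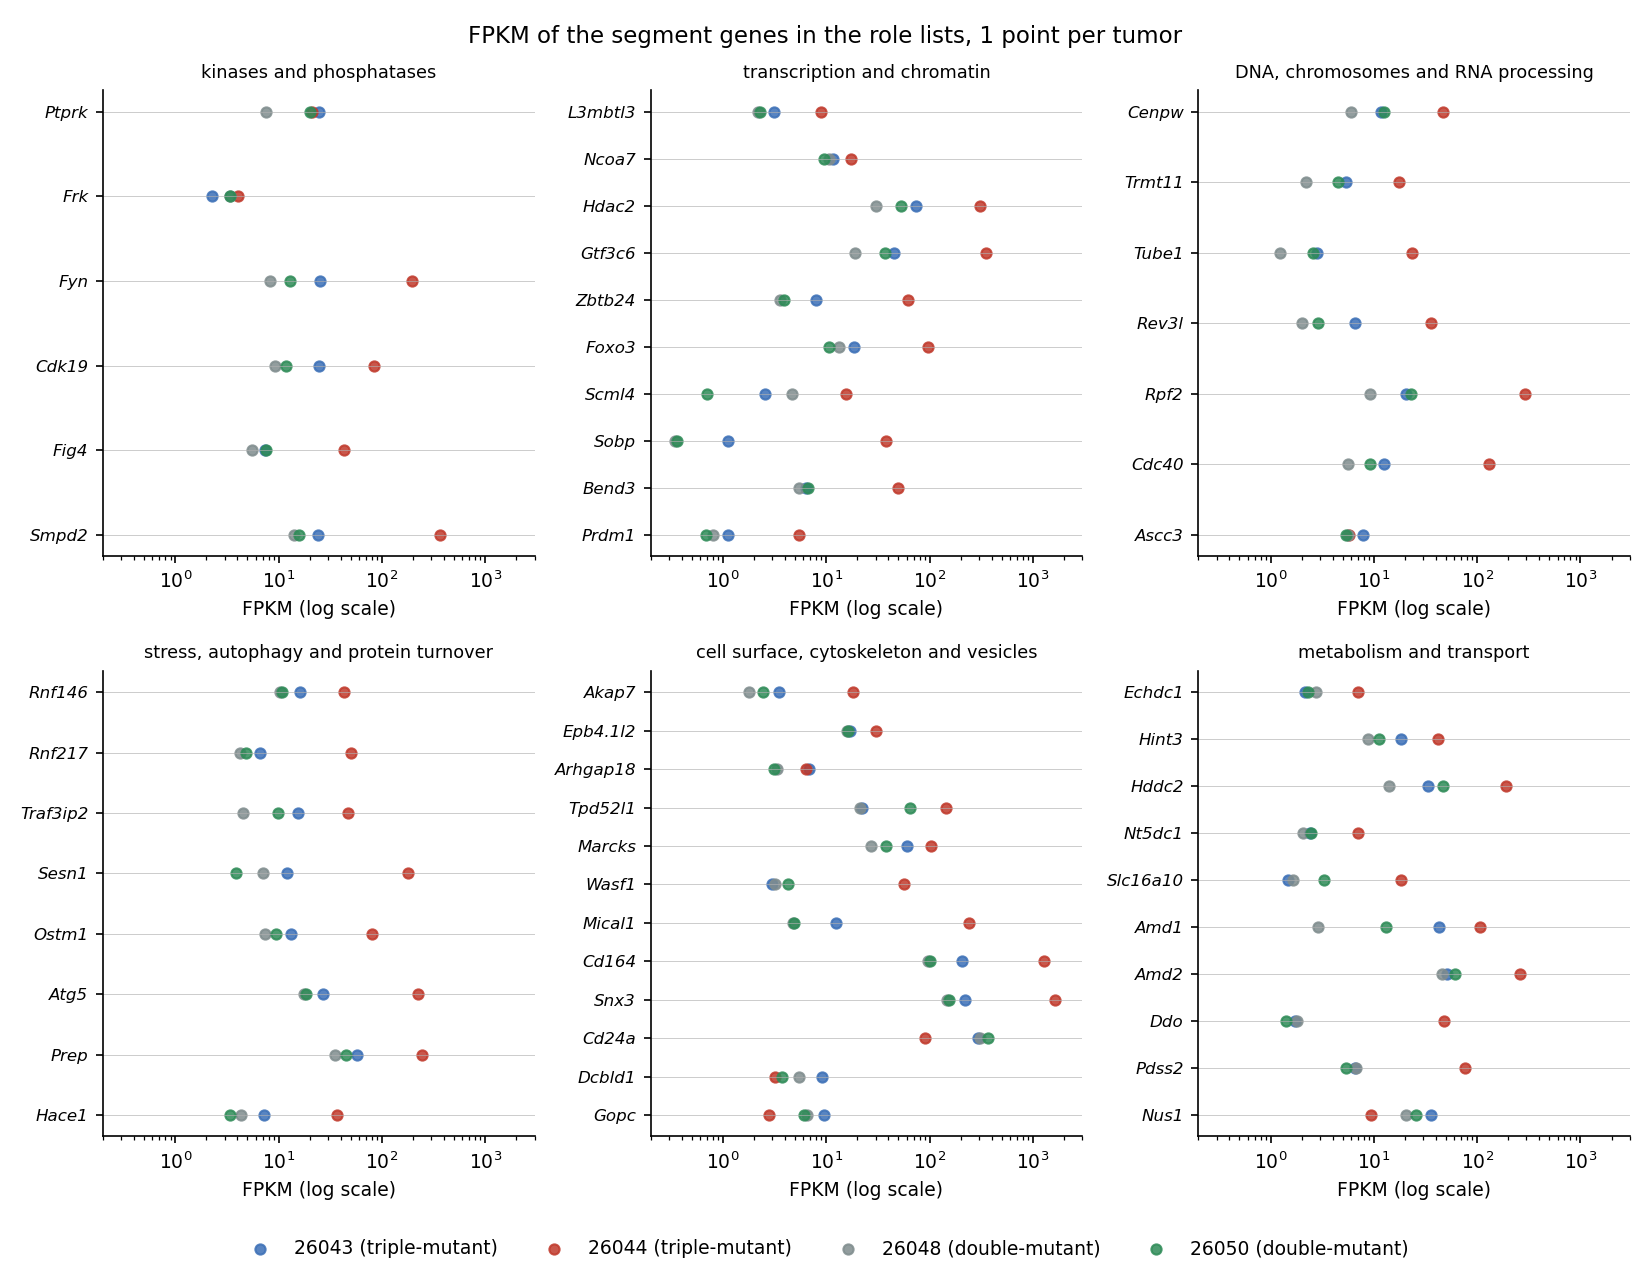
FPKM on a log axis of the members of each of the 6 role groups, 1 row per gene and 1 point per tumor, with a colour for each of the 4 tumors. The point of tumor 26044 lies to the right of the others for most genes and to the left for Cd24a, Dcbld1, Gopc and Nus1.

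Genes of the cell surface, cytoskeleton and vesicles were the most mixed, with 12 members, 7 raised in 26044 and a median difference of 1.94. Of those not raised, Epb4.1l2 and Arhgap18 lie before Cenpw, Dcbld1 and Gopc lie after Hace1, and only Cd24a lies between. Mical1, a monooxygenase that takes apart actin filaments, was at 12.4, 239.6, 4.79 and 4.88 FPKM, a ratio of 49.1 and a difference of 5.36. That difference was the highest among the members whose name in the data was not of a predicted form, such as Rik names. Snx3, a sorting nexin of endosomes, and Cd164, a sialomucin, had the highest mean FPKM of the members over the 4 tumors, while in 26043, 26048 and 26050 Cd24a was the most abundant. Snx3 was at 220, 1645, 148 and 156 FPKM and Cd164 at 207, 1269.9, 96.6 and 101 FPKM, with differences of 3.39 and 3.64. Both were expressed at high levels in every tumor, so their differences do not depend on low values. Wasf1, a subunit of the WAVE complex of actin nucleation, was at 3.02, 56.4, 3.19 and 4.26 FPKM. Akap7, an anchor of protein kinase A, was at 3.51, 18.3, 1.78 and 2.46 FPKM, and Marcks, a membrane substrate of protein kinase C, at 60.4, 103, 26.9 and 38.2 FPKM. The differences of these 3 genes were 3.78, 2.48 and 1.41. Tpd52l1 was at 22.3, 144, 21.2 and 64.3 FPKM, and its level in 26050 was also above 26043 and 26048. Epb4.1l2, a linker of spectrin and actin, was at 16.8, 30.3, 15.99 and 16.2 FPKM, and differed by 0.86. Arhgap18 was at 6.88, 6.37, 3.33 and 3.15 FPKM, at nearly the same level in the triple-mutant tumors.

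Genes of metabolism and transport had 10 members, of which 9 were raised in 26044, with a median difference of 2.39. Ddo, D-aspartate oxidase, was at 1.74, 47.7, 1.78 and 1.42 FPKM, so that the other 3 tumors were almost equal while 26044 differed by 4.15. Pdss2, which makes the side chain of coenzyme Q, was at 6.55, 77.0, 6.71 and 5.37 FPKM, a difference of 3.37. Slc16a10, a transporter of aromatic amino acids, was at 1.46, 18.1, 1.65 and 3.28 FPKM, with a difference of 2.85. Hddc2 was at 33.3, 190.3, 13.9 and 46.8 FPKM. Echdc1, Nt5dc1 and Hint3 were raised less, by 1.28, 1.21 and 1.83. Hint3 was at 18.4, 42.1, 8.82 and 11.1 FPKM. Amd1, S-adenosylmethionine decarboxylase of polyamine synthesis, was at 42.9, 106, 2.86 and 13.0 FPKM and showed a spread between all 4 tumors. It was raised in 26043 as well, by 1.65, and was 3.51 below the median of the others in 26048. Amd2, whose row nearly coincides with that of Amd1, was at 51.2, 257, 45.2 and 60.8 FPKM, so the division of reads between these near-identical genes is uncertain. Cufflinks marked Amd2 as low in data in every tumor, the only member so marked.

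Outside the role groups, 14 members whose name was not of a predicted form had a median difference of 2.096 in 26044. Of them, 11 were raised, over a range of -1.19 to 3.93. Among them, named after its values were seen, was Sec63, a component of the protein translocation channel of the endoplasmic reticulum, at 28.0, 238, 14.9 and 18.2 FPKM and a difference of 3.64. The other 9 members are called predicted by the form of their name in the data, such as Rik or Gm names. RefSeq gives several of these genes an assigned symbol. Of the 9 members with a predicted name, 7 were raised, with a median of 2.35. The highest value of the whole set belonged to one of them, 1700025K23Rik, RefSeq Fam229b, named after its values were seen. It was at 5.84, 132, 1.69 and 1.96 FPKM, a difference of 5.50.

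Cd24a was the only one of the 61 members from Cenpw to Hace1 that was lowest in 26044 by at least 1 log2 unit. It encodes a surface glycoprotein that is widely used to mark mammary epithelial cells, and lies at chr10:43579169-43584265 on the plus strand, between 1700021F05Rik and Qrsl1. Cd24a was at 297, 89.5, 311 and 368 FPKM, a difference of -1.78 in 26044. It was thus lowest in the tumor in which its neighbours were highest, at 0.288 times the median of the other tumors. The difference of 1700021F05Rik was 4.11 and that of Qrsl1 was 3.51. The luminal markers, at 408 FPKM in 26044 against 1874 to 2803 FPKM in the other tumors, had a median difference of -3.01 there, and their part in the level of Cd24a was not tested. Fam26f, a further exception, was at 3.36, 2.24, 1.62 and 1.67 FPKM.

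Of the 6 members after Hace1, 5 were lowest in 26044. Nus1, of dolichol synthesis, was at 36.0, 9.38, 20.4 and 25.7 FPKM, a difference of -1.36. Gopc, a Golgi protein, was at 9.42, 2.80, 6.52 and 6.07 FPKM and Dcbld1 at 9.18, 3.16, 5.50 and 3.71 FPKM, and in both genes 26044 was the lowest and 26043 the highest. Their differences were -0.99 and -0.64. Lilrb4 and Gp49a, inhibitory and related receptors of myeloid cells, were at 3.14, 2.05, 5.95 and 7.07 FPKM and at 1.87, 0.962, 3.45 and 4.59 FPKM. Both were lowest in 26044 and higher in both double-mutant tumors, and the macrophage marker sum was 157 FPKM in 26044 and 237 to 567 FPKM elsewhere. The part of macrophages was not tested, and reads may be divided between these similar genes. Before Cenpw, 2 members with a predicted name went the other way, and are named because of it. 2310057J18Rik was at 11.1, 0.0863, 9.59 and 1.19 FPKM, and 6330407J23Rik, RefSeq Soga3, was at 0.221, 0.149, 1.51 and 1.46 FPKM.

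The genes at the limits were followed past them. Just below 25000000, Med23 was at 13.1, 28.5, 5.82 and 8.97 FPKM and Arg1, arginase, at 66.1, 6.99, 28.6 and 60.3 FPKM, with differences of 1.56 and -2.94 in 26044. At the upper end, Slc35f1, which spans 53000000 and so does not lie within the stretch, was at 4.82, 2.63, 0.511 and 2.41 FPKM and Gm9766, beyond it, at 1.65, 0.959, 2.24 and 2.24 FPKM, with differences of 0.09 and -0.73. The raised state of 26044 was thus seen in 1 of the 2 genes below the lower limit and in neither Slc35f1 nor Gm9766. At the FPKM limit, Sobp, Prdm1 and Tspyl4 stood just inside, with Tspyl4 at 1.30, 7.52, 0.924 and 1.07 FPKM. Just outside were Fam26e at 0.989, 1.59, 0.451 and 0.101 FPKM, Hey2, a Notch target, at 0.798, 9.50, 0.156 and 0.201 FPKM, and Wisp3 at 0.673, 4.43, 0.171 and 0.306 FPKM. Hey2 and Wisp3 passed 1 FPKM in 26044 and in no other tumor.

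In all, 58 rows of the stretch were under the FPKM limit. Of these, 10 were at 0 in every tumor and 42 reached 1 FPKM in none, and 12 reached it in 26044 alone, against 3 in 26043 alone, 1 in 26048 alone and 0 in 26050 alone. The rule asks for 2 tumors, so a gene on in 26044 alone could not become a member. Among the 58, 10 were raised in 26044 and 1, 1 and 0 in 26043, 26048 and 26050. Shares over all rows of the series under the limit are not given, so these counts have no baseline and are a description. Of the 70 genes in the role lists, 53 were members, 10 were in the stretch under the limit (such as Ros1, Nr2e1 and Lin28b), 6 lay outside the stretch and 1 was not in the tables.

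Beyond the stretch, chromosome 10 held 546 further tested genes, and the plot of the chromosome in bins shows where tumor 26044 stood apart. From 0 to 25 Mb, 22.1% of 77 genes were raised in 26044 and the median difference was -0.08. This block was uneven. The bin from 15 to 20 Mb had a median of 0.95 in 26044, with 7 of 14 genes raised. The bin from 20 to 25 Mb had a median of -0.46, with 7 of 22 raised. From 53 to 65 Mb, 1.75% of 57 genes were raised and the median was -0.77. From 65 to 80 Mb, 83 of 107 genes (77.6%) were raised in 26044, with a median of 1.95, and from 80 Mb to the end 14.6% of 302 genes were, with a median of 0.11. Of the 99 genes from 80 to 85 Mb, 26 were raised in 26044, with a median of 0.41. In 26043, 28.6% of the 77 genes from 0 to 25 Mb were raised, with a median of 0.76, and 1.30% were in 26048, with a median of -0.82. These blocks were set after the values were seen.

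**Figure D4:**
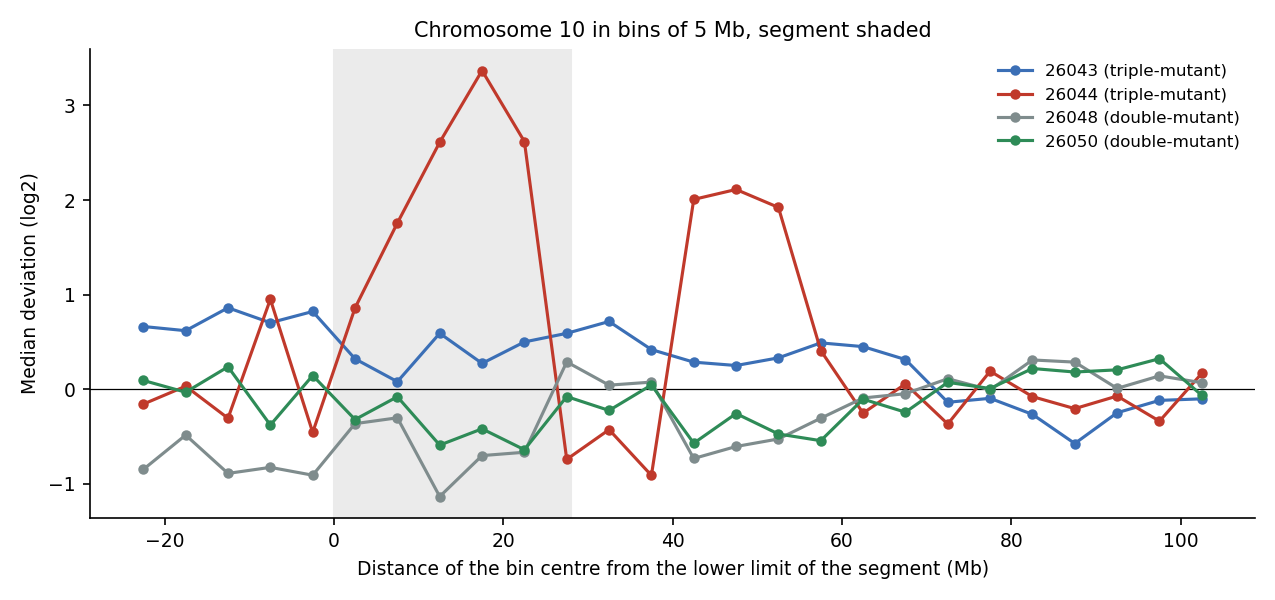
Median difference from the other 3 tumors, in log2 units, of the tested genes of chromosome 10 in bins of 5 Mb, 1 line per tumor, with the 25 to 53 Mb stretch shaded. The axis gives the distance of each bin centre from 25 Mb, and positions named here are chromosome coordinates. Tumor 26044 is high from 30 to 50 Mb and again from 65 to 80 Mb, and low in between. Its median is also 0.95 from 15 to 20 Mb, 0.86 from 25 to 30 Mb and 0.41 from 80 to 85 Mb, and low or near 0 beyond 85 Mb. Tumors 26043 and 26048 part below 25 Mb and also inside the stretch, with medians of 0.59 and -1.13 from 35 to 40 Mb.

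Among the other 3 tumors the members were mostly lowest in 26048. Tumor 26048 was the lowest of the 4 for 50 members (65.8%), beside 17.6% of all genes, and 20 members (26.3%) were at least 1 log2 unit below the median of the other tumors there, beside 5.17% of all genes. The corresponding counts were 4 in 26043, 6 in 26044 and 8 in 26050, beside 3.82%, 11.6% and 9.01% of all genes. The stretch was chosen for its raised genes, and 26044 was highest in 63 members. It could thus seldom be lowest, and it raised the median of the others, so all genes are not a like baseline here. Without 26044 the median of the members was -0.39 in 26048 and -0.04 in 26050, beside -0.0009 and -0.08 for all genes. Members were higher in 26043 than in 26048 for 63 of 76 (82.9%), beside 52.2% of all genes, with a median difference of 0.64. They were higher in 26050 than in 26048 for 57 (75%), beside 45.8%, and higher in 26043 than in 26050 for 55, beside 56.0%. The median differences of these pairs were 0.23 and 0.37. The full order of 26044, 26043, 26050 and 26048 held for 37 members, and for 4.67% of all genes. This order begins with the tumor in which the stretch was raised, so the choice of the stretch favours it.

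The members raised in other tumors were few. In 26043 they were Amd1, Mical1, Dcbld1 and Cd164, with differences of 1.65, 1.19, 1.11 and 1.03, and 3 members with a predicted name. In 26048 they were 2 members with a predicted name, 2310057J18Rik and 6330407J23Rik. In 26050 they were Tpd52l1 and Rwdd1, with differences of 1.49 and 1.11, and 2 members with a predicted name, 9030224M15Rik and 6330407J23Rik. Rwdd1 was at 29.3, 134, 29.4 and 64.8 FPKM, so it too was highest in 26044.

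The design of the study compares the triple-mutant with the double-mutant tumors, 2 against 2, and asks what loss of Rank does to these tumors. No member passed an adjusted p of 0.05 in limma on log2(FPKM + 1) with Benjamini-Hochberg adjustment over all 12752 genes, and 0% of all genes did. At an unadjusted p under 0.05 there were 11 members (14.5%) and 1252 of all genes (9.82%). The smallest adjusted p of a member was 0.409 in limma, for Amd1, with a log2 fold change of 3.22 and a standard error of 0.79. The median log2 fold change of the members was 1.43 and that of all genes was -0.02, and 68 members were above 0, as were 48.4% of all genes. The median standard error was 0.80 for the members and 0.37 for all genes.

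Both triple-mutant tumors lay above both double-mutant tumors in 48 members (63.2%), beside 21.3% of all genes, and the reverse held for 4 members, beside 22.9%. The stretch was chosen for genes that were raised mainly in 26044, a triple-mutant tumor. The choice thus favours the former pattern, and these counts are a description. An exact permutation test of 2 against 2 tumors cannot give a p under 0.333, so none is given for single genes. Without 26044 the median log2 fold change of the members was 0.52, and without 26043 it was 2.54, so in both cases a single triple-mutant tumor stands for its genotype. Without 26048 and without 26050 the median was 1.35 and 1.67. Genotype and the state of a single tumor cannot be told apart in this contrast.

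Of the 76 rows, 11 overlapped another row of the table, among them Echdc1 and Rnf146, Traf3ip2 and E130307A14Rik, Tube1 and Wisp3, and Nt5dc1 and Col10a1. The libraries kept the strand, but whether it was used in estimating FPKM is not given in the sources used here, so reads of overlapping genes may be uncertain. Below 10 FPKM in all 4 tumors were 18 members. The count of raised members in 26044 lay between 43 and 71 under every alternative setting tried. The former was among the 54 members left at a filter of 5 FPKM, beside 8.62% of all genes. The latter was over all 134 rows of the stretch without the FPKM limit, beside 6.41%.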

How the data were processed

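FPKM tables of 4 tumors were analysed. The authors selected polyA RNA, prepared libraries that keep the strand, and read 50 bases from 1 end. Per the labels, TopHat2 2.0.10, Bowtie 0.12.9 and Cufflinks 2.1.1 were run on the mm10 build, beside HTSeq and DESeq2 1.6.2, whose counts and results were not analysed here. The deposited FPKM values come with an interval and a status for each gene. FPKM holds no read counts, so depth is unknown.

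Rows were joined by symbol and position, and a gene was tested when 2 or more tumors reached 1 FPKM. The genotypes were compared on log2(FPKM + 1) in limma 3.58.1 (R 4.3.3, with a trend), with p-values adjusted by Benjamini-Hochberg over all tested genes and a threshold of 0.05. Joining used pandas 2.3.3 and numpy 2.4.6 under Python 3.11.15, and plots used matplotlib 3.10.9. The scripts were tested on simulated data. Each library is 1 tumor, so p-values measure the spread between these tumors. Members, gene lists and limits were chosen with earlier results of these data known. Named are the members of the role lists, the 5 most raised in each tumor, the 5 most abundant, those at the limits and the 3 lowest in 26044, leaving out predicted names unless stated. Starts count from 1 on GRCm38. Of the 76 members, 74 overlapped their gene in GENCODE M21 and 75 matched RefSeq. The alternatives changed the pseudocount (0.1), the filter (none, or 5 FPKM), the scaling (TPM, quantile normalization, centring), the limma trend, the threshold and the reference tumor, and left out each tumor. Members without overlap and protein-coding members (72) alone were added after seeing the data.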

Additional observations from a re-analysis of the deposited data

How the results depend on the processing

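The rise in tumor 26044 kept its direction under every alternative, with 43 to 71 raised members and a median of 1.30 to 2.60, and 60 to 61 and 2.23 to 2.54 with any other tumor left out. The limma count stayed at 0 in all 12 alternatives, while its median log2 fold change ran from 0.52 to 2.54 with 1 tumor left out. No paired analysis was possible because the tumor numbers do not repeat between the genotypes. Against the highest of the other 3 tumors, the median of 26043 turned from 0.34 to -2.10, and those of 26048 and 26050 moved to -2.77 and -2.39. The counts of raised members in these 3 tumors went to 0, beside 2.96%, 1.51% and 1.46% of all genes. Without the FPKM limit the median of 26048 was -0.19. With 1 tumor left out the medians ran from -0.85 to 0.52 in 26043, from -1.67 to -0.39 in 26048 and from -1.35 to -0.0438 in 26050. The 7 raised members of 26043 became 12 at a pseudocount of 0.1, beside 11.8% of all genes, and 11 in TPM, beside 11.7%. They became 4 after quantile normalization, beside 7.72%, and 25 at a threshold of 0.5, beside 23.1%. With 1 tumor left out they were 3 to 11, beside 9.20% to 10.2%. The 2 of 26048 became 1 at a filter of 5 FPKM, after quantile normalization and after centring on all genes. The shares of all genes there were 5.92%, 5.87% and 5.64%. At a threshold of 0.5 there were 5, beside 17.4%, and with 1 tumor left out 1 to 2, beside 4.44% to 7.50%. The 4 of 26050 became 8 at a threshold of 0.5, beside 17.4%, and 2 to 5 with 1 tumor left out, beside 4.06% to 7.65%. The cause of these changes was not tested. Depth sets no limit that can be given, since FPKM holds no read counts.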

Other observations

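A second block of chromosome 10, from 65 to 80 Mb, held a further group of genes raised in 26044, and those named here were chosen after their values were seen. Aire, the regulator of self-antigen expression in the thymus, was at 2.59, 77.4, 0.434 and 0.442 FPKM in 26043, 26044, 26048 and 26050, a difference of 5.76 in 26044. Col18a1, the collagen that gives endostatin, was at 100.4, 1730.4, 149 and 42.5 FPKM, and Mif, a cytokine, at 2265, 21872, 1412 and 2046 FPKM. Smarcb1, a core subunit of the SWI/SNF chromatin remodelling complex, was at 80.9, 507, 51.2 and 51.1 FPKM, and Sumo3, a ubiquitin-like modifier, at 77.5, 430, 41.3 and 42.9 FPKM. Adora2a, an adenosine receptor, was at 2.0004, 38.9, 0.688 and 0.236 FPKM, and Derl3, of endoplasmic reticulum degradation, at 8.71, 100.1, 3.998 and 4.49 FPKM. As in the stretch from 25 to 53 Mb, 26044 was the highest tumor in each of these 7 genes. No test was made.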
